A study of Mus musculus with 4 samples.

Results

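The Rab GTPases are the members of the Ras superfamily whose gene symbols read Rab followed by a number and, in some, a letter. They were taken as all probe sets whose only symbol in the platform annotation had that form, which gave 132 of 45037 probe sets and 59 of 18193 named genes. Symbols such as Rab3gap1 or Rab11fip2, which name regulators and effectors, were left out by this rule. Signals were read on 4 arrays, 2 hybridised with RNA of cultured neurons and 2 with RNA of cultured astrocytes, both from the cerebral cortex of C57BL6 mice. The neurons were taken from fetuses at embryonic day 16, kept at 1% fetal calf serum and 19.4 mM glucose, and by the series description grown for 7 days. The astrocytes were taken from newborn animals, kept at 10% serum and 33 mM glucose, and by that description grown for 20 days. The protocol text instead gives 1 common period of about a week for all cells, so the time in culture of the astrocytes is uncertain. Cell type, age of the donor animals and medium, and any difference in time, changed together, so their effects cannot be told apart. The titles name the replicates biological. The labels do not say whether they came from separate animals or litters, so p-values measure the spread between these arrays.

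Rab proteins are small GTPases that switch between a GTP-bound form on membranes and a GDP-bound form that a carrier protein can lift into the cytosol. Exchange factors turn them on, GTPase-activating proteins turn them off, and effectors bound to the active form move, tether or fuse vesicles. Each Rab marks a part of the secretory or endocytic pathway. In neurons, Rab3 proteins are best known for their place on synaptic vesicles, while endosomal and Golgi Rabs serve axonal and dendritic transport.

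Values are MAS5 signals, a linear intensity per probe set. Fold changes were computed as neurons over astrocytes on the log2(signal + 12.5) scale, which understates the change of dim genes. Folds given as at least a value are lower bounds against background, taken from signals without the offset. Every adjusted p of a gene comes from 1 limma fit across 25019 probe sets, with Benjamini-Hochberg adjustment and a threshold of 0.05. A gene was read by its tested probe set with the highest mean. Levels of different genes are not compared, because each probe set has its own response.

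The cultures carried the markers of their labels, with some markers of other cells. All 10 neuron markers were higher in neurons, where their summed signal was 28688 and 28066, against 3124 and 2926 in astrocytes. Of 10 astrocyte markers, astrocytes had the higher signal for 7, and neurons for 2 (Aldoc and Slc1a2). Their summed signal was 8697 and 9998 in neurons, against 19631 and 20072 in astrocytes, so transcripts of astrocyte marker genes were also present in the neuron cultures. The largest parts of the neuron sums came from Aldoc (2574 and 3422) and Slc1a2 (1832 and 1865), the 2 called for neurons. Gja1 (1623 and 1715) and Slc1a3 (1138 and 1258), called for astrocytes, came next. Gfap, the astrocyte filament gene, differed between the neuron arrays (2 and 109). Of 6 tested microglia markers 5 were higher in astrocytes, with list sums of 154 and 199 in neurons against 883 and 847 in astrocytes. Microglial Itgam was not above background in either culture. Fibroblast and meningeal markers had 6 of 8 tested called for astrocytes (sums of 541 and 582 in neurons, 4571 and 4707 in astrocytes). Endothelial and mural markers had 2 of 4 tested called for astrocytes, Acta2 and Tagln (sums of 194 and 571 in neurons, 7396 and 8248 in astrocytes). Most of the astrocyte sums came from Acta2 (4544 and 4791) and Tagln (2691 and 3331). Kdr and Rgs5 did not pass, and Cdh5, Cldn5 and Tek were too dim to be tested. Pecam1 was not above background in either culture. For the oligodendrocyte lineage, 4 of 7 tested markers were called for neurons and 2 for astrocytes (5705 and 4933 in neurons, 5550 and 6140 in astrocytes). Pdgfra, a marker of oligodendrocyte precursors, was at 1177 and 1302 in neurons and at 19 and 21 in astrocytes. Mbp, Sox10 and Cspg4 were the others called for neurons. The 2 called for astrocytes were Olig1 (2899 and 1895 in neurons, 3500 and 3997 in astrocytes) and Cnp (366 and 500, 1344 and 1536). Olig2 did not pass (663 and 642 in neurons, 617 and 508 in astrocytes). In bulk cultures, fewer cells of a type and less RNA per cell cannot be told apart, and the part of other cell types in any Rab result was not tested.

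Of the 59 Rab genes, 52 had a probe set bright enough to be tested. Of these, 19 were higher in neurons, 19 were higher in astrocytes and 14 did not pass the threshold. Over all 12040 tested genes, 31.0% were higher in neurons and 31.1% higher in astrocytes, against 36.5% of the tested Rab genes in each direction. Differences of at least 2-fold were seen for 11 Rab genes in favour of neurons and 12 in favour of astrocytes, which is 21.2% and 23.1% of those tested, against 18.0% and 18.8% of all genes. Differences of at least 8-fold were seen for 6 in favour of neurons and 2 in favour of astrocytes, against a background of 3.89% and 2.67%. The groups did not overlap in 46 Rab genes (88.5%), against 81.9% of all genes. The median log2 fold change of the tested Rab genes was 0.03, and that of all genes was 0.02. The Rab genes therefore split about evenly between the cultures, with fitted folds from 63.7 in favour of neurons (Rab3c) to 10.5 in favour of astrocytes (Rab29). The astrocyte signals of Rab3c were not above background, so its fitted fold gives no exact size.

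The filter on low signals bears on these counts. Of the tested Rab genes, 3 (Rab3b, Rab3c and Rab9b) reached the array median only on neuron arrays and 5 (Rab26, Rab27a, Rab32, Rab38 and Rab42) only on astrocyte arrays. Among the 44 that reached it in both cultures, 16 were higher in neurons, 15 were higher in astrocytes and 13 did not pass. No share over all genes is given beside this split or beside the counts below with 1 array left out. These counts therefore describe the Rab genes only. The 7 genes too dim to be tested were Rab17, Rab19, Rab20, Rab25, Rab37, Rab39 and Rab44, with no signal above 39 on any array. Among them are Rab25 and Rab17, which are best known from epithelia. With 1 array left out, 15 or 16 Rab genes were higher in neurons and 14 or 15 higher in astrocytes. Of the 38 called Rab genes, 26 stayed past the threshold with any 1 array left out.

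**Figure D1:**
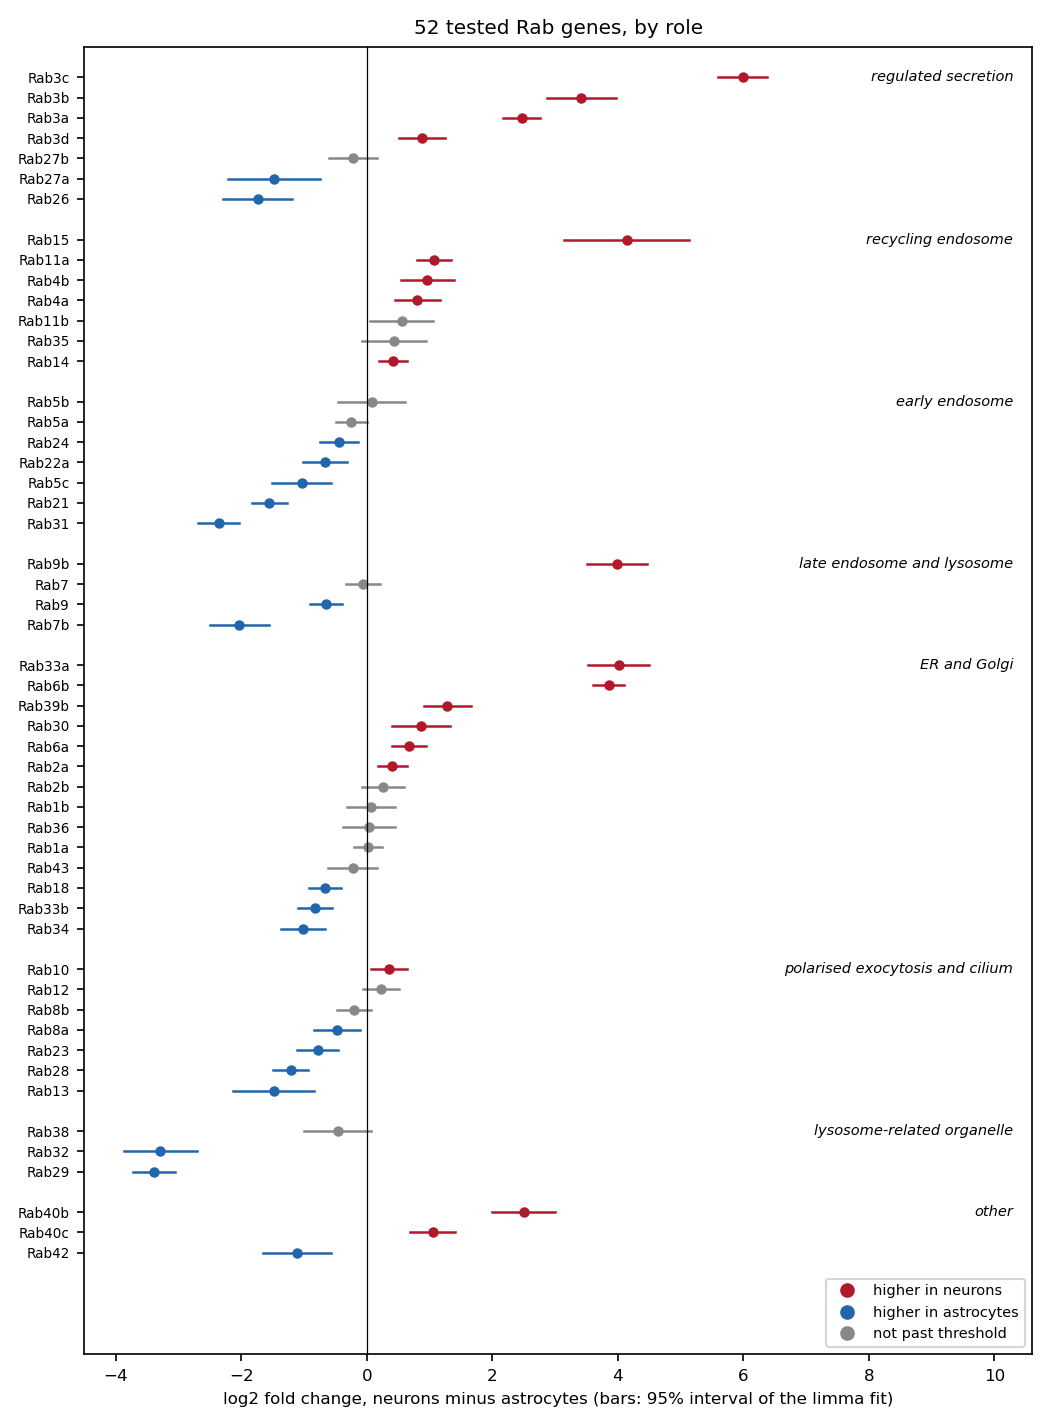
Log2 fold change (neurons minus astrocytes) of the 52 tested Rab genes, grouped by role and ordered within each role. Points are the estimates, bars are 95% intervals of the limma fit, and colours give the call. The 7 recycling Rabs lie right of 0, and the early endosome Rabs lie left of it except Rab5b at 0.08; the values of Rab3c, Rab27a and Rab42, with 1 culture not above background, are fitted and show no exact size.

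Rabs of regulated secretion split by family. Here and below, the roles order the text and were grouped with earlier results of these data known, so their counts test nothing. Rab3c, a Rab of synaptic and secretory vesicles, had signals of 1747 and 1478 in neurons and 11 and 15 in astrocytes. The astrocyte values were not above background, so by signals without the offset Rab3c was at least 100.6-fold higher in neurons. Its fitted fold was 63.7, or 5.99 on the log2 scale (adjusted p = 1.35e-07). The other 3 tested Rab3c probe sets stood at 4.70, 4.34 and 1.84 on the log2 scale, all past the threshold, and the average of its probe sets at 4.22. Rab3a, the most studied synaptic vesicle Rab, had signals of 2451 and 2058 in neurons and 382 and 411 in astrocytes, a 5.53-fold difference (adjusted p = 1.31e-06). That probe set may bind several transcripts by its suffix; the other Rab3a probe set was at 640 and 422 in neurons and at 19 and 33 in astrocytes, with a log2 fold change of 3.81. Rab3b was at 305 and 259 in neurons and at 10 and 21 in astrocytes, 10.7-fold higher in neurons (adjusted p = 6.09e-06), and from 5.07-fold with the offset 4 times as large to 18.1-fold with an offset of 1. Rab3d, known from the granules of secretory cells outside the brain, was at 217 and 221 in neurons and at 118 and 108 in astrocytes, 1.85-fold higher (adjusted p = 0.00155). Without probe sets that may bind several transcripts, Rab3d had a log2 fold change of 0.49 and missed the threshold (adjusted p = 0.178). All 4 Rab3 genes were higher in neurons, against 31.0% of all tested genes. Of these, Rab3b and Rab3c reached the array median only on neuron arrays, so they could pass the filter only by being high there. The groups of all 4 did not overlap, as in 81.9% of all tested genes.

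The remaining secretory Rabs did not share that direction. Rab26, a Rab of secretory granules that has also been placed on synaptic vesicles, was at 22 and 14 in neurons and at 94 and 83 in astrocytes, 3.34-fold higher in astrocytes (adjusted p = 0.000310). Its signals were low in both cultures, and with a larger offset its log2 fold change was -1.03, against -1.74. Rab27a, which serves lysosome-related organelles and exosome release, was at 1 and 10 in neurons and at 38 and 34 in astrocytes. The neuron values were not above background, so it was at least 1.64-fold higher in astrocytes (adjusted p = 0.00400). Its call was lost without astrocytes replicate 1 (adjusted p = 0.0803) or replicate 2 (adjusted p = 0.0694). Only 1 of its 4 probe sets was tested; without the filter another probe set is the brightest, and it stood at 0.21 on the log2 scale (adjusted p = 0.696). Rab27b, its close relative in regulated exocytosis, was at 135 and 121 in neurons and at 159 and 143 in astrocytes by its brightest probe set (adjusted p = 0.302). A dimmer Rab27b probe set was at 76 and 68 in neurons and at 198 and 206 in astrocytes, with a log2 fold change of -1.35 (adjusted p = 0.000202). With its probe sets averaged, Rab27b was higher in astrocytes (log2 fold change -0.73, adjusted p = 0.00482). Rab37 was too dim to be tested.

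**Figure D2:**
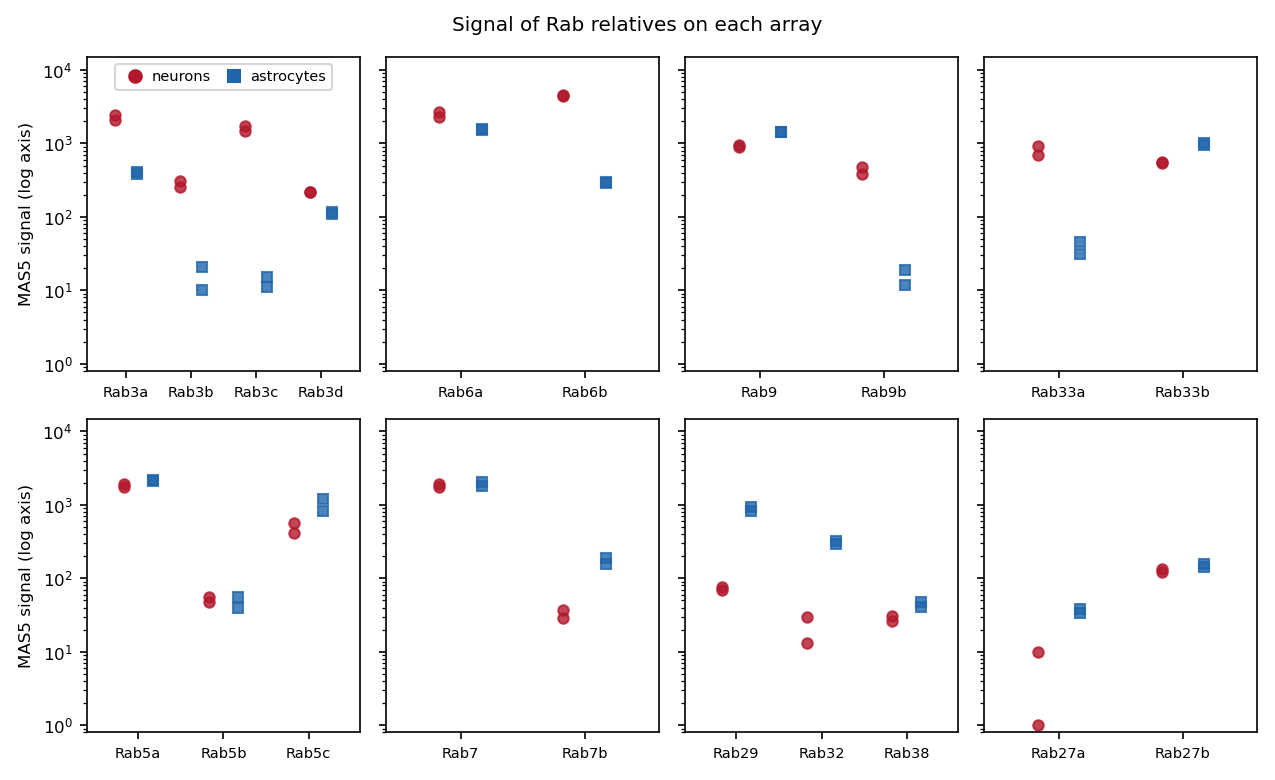
MAS5 signal (log axis) of close Rab relatives on each array, neurons as circles on the left and astrocytes as squares on the right of each gene. Rab3b, Rab3c, Rab9b and Rab33a have astrocyte signals from 10 to 46, while Rab9 and Rab33b lie higher in astrocytes than in neurons.

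Rabs of recycling endosomes, which return receptors to the cell surface, had 5 of 7 tested members higher in neurons, none higher in astrocytes and 2 that did not pass. Over all tested genes, 31.0% were higher in neurons and 31.1% higher in astrocytes. The median log2 fold change of the 7 was 0.81, against 0.02 over all genes. As the role was grouped with earlier results known, these values describe its members and test nothing. Rab15, which slows and sorts endocytic recycling, had signals of 783 and 662 in neurons and 61 and 11 in astrocytes, 17.6-fold higher in neurons (adjusted p = 6.60e-05). The astrocyte arrays differed from each other, and the standard error of its log2 fold change (0.44) exceeds the median over Rab genes (0.16). It was 31.2-fold higher without astrocytes replicate 1 and 9.97-fold without astrocytes replicate 2, and past the threshold in both, and 9.36-fold with the offset 4 times as large. Rab11a, the main Rab of the recycling endosome, was at 1742 and 1795 in neurons and at 882 and 790 in astrocytes, 2.10-fold higher (adjusted p = 7.48e-05). The other Rab11a probe set stood at 0.19 on the log2 scale (adjusted p = 0.170), and the average of both was 0.63, against 1.07. Rab4a and Rab4b, of the fast recycling route, were 1.75-fold and 1.96-fold higher in neurons. Rab4a had signals of 404 and 376 in neurons and 196 and 241 in astrocytes. Rab4b had 432 and 321 in neurons and 170 and 200 in astrocytes. Rab4a was not called without neurons replicate 1 (adjusted p = 0.0578). Rab4b was not called without astrocytes replicate 1 (adjusted p = 0.0765) or replicate 2 (adjusted p = 0.0501).

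The other recycling Rabs had smaller differences. Rab14, of the route between Golgi and endosomes, was at 4304 and 4240 in neurons and at 3172 and 3198 in astrocytes, 1.34-fold higher in neurons (adjusted p = 0.00549). It lost its call without neurons replicate 1 (adjusted p = 0.0628) or replicate 2 (adjusted p = 0.0577). Of its 7 tested probe sets, 3 were higher in neurons and 1 was higher in astrocytes (355 and 371 in neurons, 508 and 525 in astrocytes). Rab11b, a close relative of Rab11a, was at 555 and 429 in neurons and at 261 and 412 in astrocytes (adjusted p = 0.0601). Its 2 dimmer probe sets were called higher in astrocytes, with log2 fold changes of -0.65 and -1.47, and the average of the probe sets gave -0.52 (adjusted p = 0.0106). The direction of Rab11b therefore depended on the probe set. Rab35, which also serves recycling and neurite growth, was at 322 and 240 in neurons and at 164 and 248 in astrocytes, and the groups overlapped (adjusted p = 0.125). With 1 array left out, 3 or 4 of the 7 stayed higher in neurons.

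Rabs of early endosomes, where cargo first arrives after uptake, had 0 of 7 tested members higher in neurons, 5 higher in astrocytes and 2 that did not pass, against 31.0% and 31.1% called over all genes. The median log2 fold change of the 7 was -0.66, against 0.02. This role was also grouped with earlier results known, so its contrast with the recycling Rabs is a description and no test. Rab31, a relative of Rab5 on endosomes and the trans-Golgi, was at 857 and 663 in neurons and at 3717 and 4138 in astrocytes, 5.13-fold higher in astrocytes (adjusted p = 2.57e-06). The second Rab31 probe set stood at -1.98 on the log2 scale, close to the -2.36 of the brighter one. Rab21, which binds integrins and guides their uptake, was at 383 and 367 in neurons and at 1167 and 1083 in astrocytes, 2.93-fold higher in astrocytes (adjusted p = 1.16e-05). The second Rab21 probe set was called in the other direction (218 and 183 in neurons, 145 and 143 in astrocytes, adjusted p = 0.0488), and their average gave a log2 fold change of -0.56. Rab5c was at 560 and 412 in neurons and at 829 and 1202 in astrocytes, 2.05-fold higher in astrocytes (adjusted p = 0.00255). It lost its call without neurons replicate 1 (adjusted p = 0.0503), neurons replicate 2 (adjusted p = 0.110) or astrocytes replicate 2 (adjusted p = 0.0915).

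The relatives Rab5a and Rab5b, which with Rab5c drive early endosome fusion, did not pass. Rab5a was at 1742 and 1916 in neurons and at 2207 and 2143 in astrocytes (adjusted p = 0.0791), with a 95% interval of its log2 fold change from -0.50 to -0.0018. Rab5b was at 55 and 47 in neurons and at 56 and 40 in astrocytes (adjusted p = 0.793). Rab22a was 1.59-fold and Rab24, which has been tied to autophagy, 1.36-fold higher in astrocytes. Rab22a lost its call without neurons replicate 2 (adjusted p = 0.0536), astrocytes replicate 1 (0.0763) or astrocytes replicate 2 (0.0517), and without probe sets that may bind several transcripts (log2 fold change -0.20, adjusted p = 0.413). Rab24 was called in no fit that left out 1 array (adjusted p from 0.0637 to 0.127). With 1 array left out, 2 or 3 of the 7 stayed higher in astrocytes and none was higher in neurons.

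**Figure D3:**
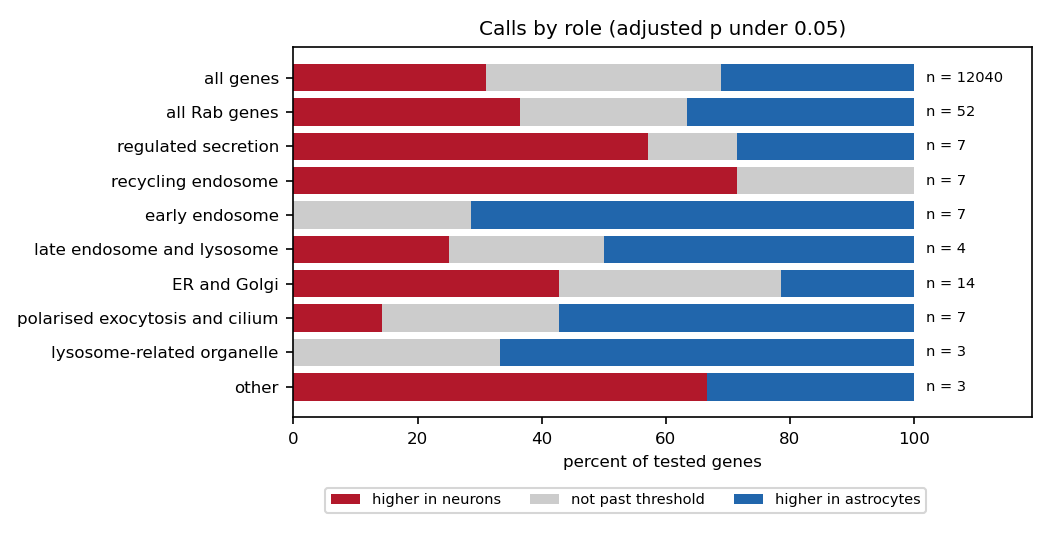
Percent of tested genes called higher in neurons, not past the threshold, and called higher in astrocytes, for all genes, all Rab genes and each role. Of 7 recycling Rabs 5 were higher in neurons and none in astrocytes. Of 7 early endosome Rabs 5 were higher in astrocytes and none in neurons. The roles were grouped with earlier results of these data known.

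Late endosome Rabs differed by gene. Rab7, the Rab of late endosomes and lysosomes in most cells, was at 1954 and 1775 in neurons and at 1822 and 2059 in astrocytes, and the groups overlapped (adjusted p = 0.706). The 95% interval of its log2 fold change ran from -0.32 to 0.21. A dimmer Rab7 probe set was higher in astrocytes (445 and 459 in neurons, 711 and 653 in astrocytes), and the average gave -0.32 (adjusted p = 0.0248). Rab7b, a distinct gene that acts between endosomes and the trans-Golgi, was at 29 and 37 in neurons and at 189 and 158 in astrocytes, 4.09-fold higher in astrocytes (adjusted p = 5.00e-05), or 2.69-fold with the offset 4 times as large. Rab9, which serves traffic from late endosomes to the Golgi, was at 938 and 883 in neurons and at 1452 and 1425 in astrocytes, 1.57-fold higher in astrocytes (adjusted p = 0.00112). Rab9b had the opposite direction: 387 and 474 in neurons and 19 and 12 in astrocytes, 15.9-fold higher in neurons (adjusted p = 1.28e-06). The Rab9b fold ranged from 7.32 with the offset 4 times as large to 26.6 with an offset of 1. In both Rab9 genes the groups did not overlap, as in 81.9% of all tested genes. Rab9b reached the array median only on neuron arrays, so it could pass the filter only by being high there. With 1 array left out, the log2 fold change ran from -0.70 to -0.61 for Rab9 and from 3.81 to 4.17 for Rab9b.

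Among the 14 tested Rabs of the endoplasmic reticulum and Golgi, 6 were higher in neurons, 3 were higher in astrocytes and 5 did not pass, which is 42.9% and 21.4% of the 14 against 31.0% and 31.1% of all genes. The largest differences lay in single members of close families. Rab6b, the Rab6 form known as neuronal, was at 4533 and 4369 in neurons and at 301 and 292 in astrocytes, 14.4-fold higher (adjusted p = 1.35e-07). All 4 of its probe sets were higher in neurons, with log2 fold changes from 1.58 to 3.85 and an average of 2.81. Rab6a, its widely expressed relative in retrograde and post-Golgi transport, was at 2675 and 2301 in neurons and at 1590 and 1519 in astrocytes, 1.59-fold higher (adjusted p = 0.00125). Rab33a, which has been tied to vesicle transport in growing axons, was at 691 and 930 in neurons and at 31 and 46 in astrocytes, 16.1-fold higher (adjusted p = 1.28e-06), or 9.67-fold with the offset 4 times as large. Rab33b, a Golgi Rab that takes part in autophagosome formation, was at 563 and 543 in neurons and at 960 and 1023 in astrocytes, 1.77-fold higher in astrocytes (adjusted p = 0.000413). Rab39b, mutated in an X-linked form of intellectual disability in people, was at 568 and 440 in neurons and at 206 and 190 in astrocytes, 2.44-fold higher (adjusted p = 0.000202). Its dimmer probe set (87 and 87 in neurons, 54 and 64 in astrocytes) had a log2 fold change of 0.48 and did not pass (adjusted p = 0.0662).

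By the probe set that stands for each gene, the remaining tested Rabs of this role differed by at most 2.03-fold. Rab1a, which every cell needs for transport from endoplasmic reticulum to Golgi, was at 3771 and 3807 in neurons and at 3795 and 3661 in astrocytes (adjusted p = 0.853), with a 95% interval from -0.20 to 0.25 on the log2 scale. A dimmer Rab1a probe set was called higher in neurons (1240 and 1224 in neurons, 1037 and 887 in astrocytes, adjusted p = 0.0351). Rab1b was at 235 and 185 in neurons and at 198 and 200 in astrocytes, and the groups overlapped (adjusted p = 0.769). Rab2a, which also serves early secretion, was 1.32-fold higher in neurons (3587 and 3891 in neurons, 2835 and 2799 in astrocytes), and a second Rab2a probe set was 1.65-fold higher (3539 and 3643 in neurons, 2216 and 2121 in astrocytes, adjusted p = 0.000339). The brighter probe set stands for the gene. Rab2a lost its call without neurons replicate 2 (adjusted p = 0.0861), astrocytes replicate 1 (0.0545) or astrocytes replicate 2 (0.0596), and with its probe sets averaged (0.152). Rab2b did not pass (435 and 463 in neurons, 410 and 340 in astrocytes, adjusted p = 0.162). Rab30 was 1.81-fold higher in neurons, but its second probe set had a log2 fold change of -0.39, and it missed the threshold when they were averaged (adjusted p = 0.283) and without neurons replicate 1 (0.102), neurons replicate 2 (0.122) or astrocytes replicate 2 (0.0675). Rab18, of lipid droplets and the endoplasmic reticulum, and Rab34, of Golgi and cilium formation, were 1.59-fold and 2.03-fold higher in astrocytes. Without probe sets that may bind several transcripts, the log2 fold change of Rab18 was -1.12, against -0.67. The other Rab34 probe set was 2.57-fold higher in astrocytes (131 and 172 in neurons, 395 and 417 in astrocytes, adjusted p = 0.000170). Rab36 and Rab43 did not pass.

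Of 7 Rabs of polarised exocytosis and the cilium, 1 was higher in neurons and 4 were higher in astrocytes, which is 14.3% and 57.1% against 31.0% and 31.1% of all genes. With 1 array left out, 0 were higher in neurons and 2 or 3 higher in astrocytes. Rab28, a Rab of ciliated cells, was at 455 and 472 in neurons and at 1136 and 1044 in astrocytes, 2.31-fold higher in astrocytes (adjusted p = 4.72e-05), and its second probe set gave nearly the same log2 fold change (-1.25 against -1.21). Rab13, a Rab of cell junctions and the leading edge, was at 62 and 49 in neurons and at 128 and 243 in astrocytes, 2.80-fold higher in astrocytes (adjusted p = 0.00210). Its call was lost without neurons replicate 1 (adjusted p = 0.0741) or replicate 2 (adjusted p = 0.104). Rab23, which restrains hedgehog signalling, was 1.72-fold higher in astrocytes by a probe set that matches several of its transcripts; without such probe sets its log2 fold change was -0.11 (adjusted p = 0.627). Rab8a, of exocytosis and cilium growth, was at 201 and 187 in neurons and at 250 and 302 in astrocytes (1.39-fold, adjusted p = 0.0311). Rab10, of exocytosis and axon growth, was at 1793 and 2076 in neurons and at 1604 and 1416 in astrocytes (1.28-fold, adjusted p = 0.0380). Neither was called once any 1 array was left out, with adjusted p from 0.0645 to 0.184 for Rab8a and from 0.0833 to 0.234 for Rab10. Rab8b (798 and 780 in neurons, 864 and 955 in astrocytes) and Rab12 (674 and 739 in neurons, 581 and 617 in astrocytes) did not pass.

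The largest differences in favour of astrocytes were in a small family tied to lysosome-related organelles. Rab29, which recruits the kinase LRRK2 to the Golgi and to stressed lysosomes, was at 70 and 77 in neurons and at 835 and 943 in astrocytes, 10.5-fold higher in astrocytes (adjusted p = 5.67e-07). Rab32, which serves melanosome formation in pigment cells and mitochondria and lysosomes elsewhere, was at 30 and 13 in neurons and at 321 and 297 in astrocytes, 9.76-fold higher in astrocytes (adjusted p = 1.12e-05). The Rab32 fold ranged from 5.05 with the offset 4 times as large to 14.9 with an offset of 1. Rab38, the third member, was at 31 and 26 in neurons and at 47 and 41 in astrocytes (adjusted p = 0.119), with a 95% interval from -0.99 to 0.07. The calls of Rab29 and Rab32 held under every alternative run. Microglial and meningeal marker sums were also higher on the astrocyte arrays, and their part in these differences was not tested.

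The last members belong to no common route. Rab40b and Rab40c carry a domain that joins them to ubiquitin ligases. Rab40b was at 399 and 295 in neurons and at 60 and 42 in astrocytes, 5.66-fold higher in neurons (adjusted p = 2.09e-05). Rab40c was at 468 and 591 in neurons and at 245 and 251 in astrocytes, 2.07-fold higher (adjusted p = 0.000480). Rab42 was at 17 and 15 in neurons, not above background, and at 49 and 49 in astrocytes, at least 2.23-fold higher in astrocytes (adjusted p = 0.00362). With a larger offset its log2 fold change was -0.59, against -1.11. Both Rab40 genes kept their call under every alternative run.

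The probe sets of 1 gene agreed in direction for most, but not all, Rabs. Of 31 Rab genes with more than 1 tested probe set, 2 (Rab14 and Rab21) had probe sets called in both directions. In the plot of probe sets by gene, Rab2a, Rab2b, Rab8a, Rab11b, Rab30 and Rab43 also have estimates on both sides of 0. Averaging probe sets ended the calls of Rab2a, Rab8a, Rab10 and Rab30 and gave calls to Rab7, Rab11b, Rab12 and Rab27b. Over the 109 tested Rab probe sets, 35 were higher in neurons and 31 higher in astrocytes, which is 32.1% and 28.4% of them, against 29.4% and 27.7% of all tested probe sets.

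**Figure D4:**
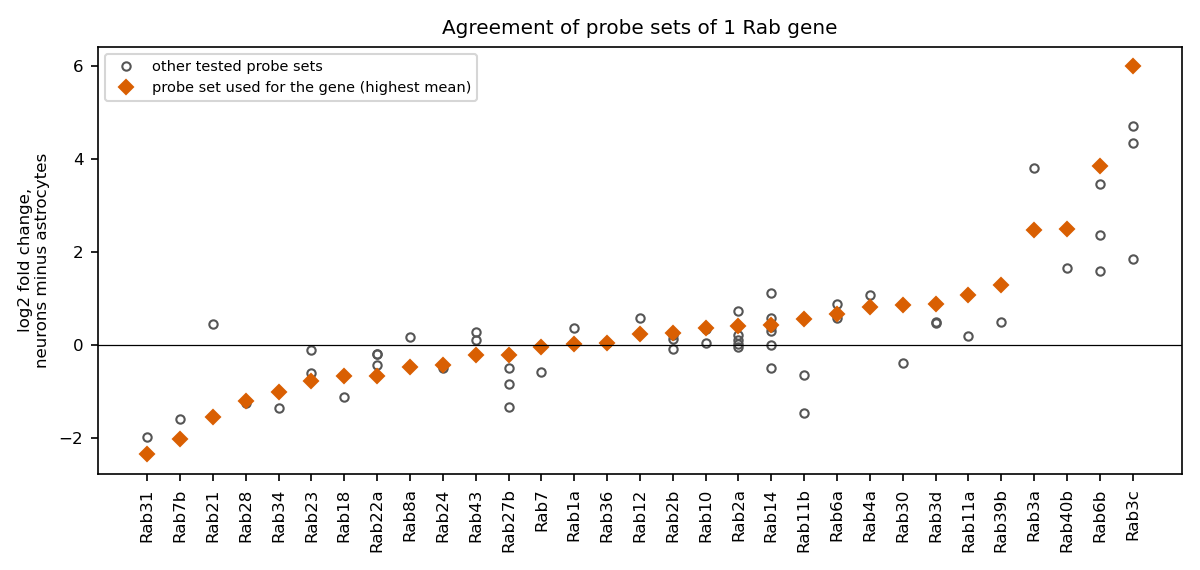
Log2 fold change (neurons minus astrocytes) of each tested probe set for the 31 Rab genes with more than 1. Filled diamonds mark the probe set with the highest mean, which stands for the gene, and open circles the others; Rab21 and Rab11b have estimates on both sides of 0.

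Start-site sequence was examined for the Rab genes, since members of 1 family had opposite directions. RefSeq windows (GRCm38.p6) of 300 bases, from 250 before to 50 after an annotated start, were given for 48 of the 59 genes, with 60 windows in all. In all, 5 windows are printed for genes with large differences, chosen after their values were seen. Capitals mark the GC box (GGGCGG) and the CCAAT box (CCAAT), read on both strands, and the Rab29 window holds neither.
Rab3c, chr13:110280157-110280456, minus strand, higher in neurons: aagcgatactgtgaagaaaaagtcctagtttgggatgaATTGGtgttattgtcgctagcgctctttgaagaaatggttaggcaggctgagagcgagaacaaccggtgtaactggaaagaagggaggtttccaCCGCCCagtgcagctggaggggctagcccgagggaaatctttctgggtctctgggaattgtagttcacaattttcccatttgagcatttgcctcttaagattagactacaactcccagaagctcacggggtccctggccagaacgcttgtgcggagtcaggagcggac
Rab6b, chr9:103111824-103112123, plus strand, higher in neurons: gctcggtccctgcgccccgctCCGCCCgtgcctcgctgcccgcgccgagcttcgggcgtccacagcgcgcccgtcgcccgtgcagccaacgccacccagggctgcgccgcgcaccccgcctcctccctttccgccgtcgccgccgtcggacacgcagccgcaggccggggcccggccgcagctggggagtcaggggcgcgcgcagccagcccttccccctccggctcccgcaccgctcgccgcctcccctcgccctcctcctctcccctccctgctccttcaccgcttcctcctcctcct
Rab9b, chrX:136868507-136868806, minus strand, higher in neurons: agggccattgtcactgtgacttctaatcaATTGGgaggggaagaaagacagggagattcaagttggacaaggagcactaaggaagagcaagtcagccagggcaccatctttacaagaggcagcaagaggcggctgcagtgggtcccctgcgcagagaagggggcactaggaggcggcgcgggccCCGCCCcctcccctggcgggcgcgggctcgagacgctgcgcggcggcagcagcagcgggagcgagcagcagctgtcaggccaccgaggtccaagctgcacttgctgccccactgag
Rab29, chr1:131867027-131867326, plus strand, higher in astrocytes: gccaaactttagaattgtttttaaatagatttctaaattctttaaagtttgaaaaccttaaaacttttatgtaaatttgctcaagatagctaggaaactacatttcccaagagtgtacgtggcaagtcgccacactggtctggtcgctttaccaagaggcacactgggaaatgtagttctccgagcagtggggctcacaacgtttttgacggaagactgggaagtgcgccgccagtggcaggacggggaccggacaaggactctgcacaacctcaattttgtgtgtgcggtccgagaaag
Rab31, chr17:65772703-65773002, minus strand, higher in astrocytes: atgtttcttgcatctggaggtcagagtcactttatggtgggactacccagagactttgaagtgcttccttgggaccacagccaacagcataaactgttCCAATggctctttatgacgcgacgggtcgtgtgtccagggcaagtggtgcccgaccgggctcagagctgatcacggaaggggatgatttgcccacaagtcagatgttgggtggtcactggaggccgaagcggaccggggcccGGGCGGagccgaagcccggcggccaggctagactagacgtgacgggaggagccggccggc

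The windows of Rab genes were rich in GC. Their median GC content was 61.2%, against 52.7% over all 32851 windows, and a GC box was found in 41 of 60 (68.3%) against 35.7%. Windows of Rabs higher in neurons and of those higher in astrocytes had the same median GC content (60.8%), with a GC box in 14 of 20 and in 12 of 20. The CCAAT box was found in 9 of 20 and in 8 of 20, against 37.4% of all windows. The E-box CACGTG was found in 0 of 20 windows of Rabs higher in neurons and in 4 of 20 of those higher in astrocytes (Rab21, Rab23, Rab24 and Rab27a), against 7.15% of all windows. The TATA box (TATAAA) was found in 4 of 60 Rab windows against 13.6%, and the cyclic AMP element (TGACGTCA) in 2 of 60 against 1.79%. A stretch of the element bound by the repressor REST (TTCAGCACC) was found in 0 of 60, against 0.371% of all windows. No searched motif is part of another. Several windows can belong to 1 gene and overlap, and a match is a description of letters, not a site. Of the 59 genes, 4 lie on the X chromosome: Rab9b, Rab33a and Rab39b, higher in neurons, and Rab9, higher in astrocytes.

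Genes that act on or with Rab proteins were read from a list drawn from general knowledge, of which 101 of 121 were tested. Of these, 34 were higher in neurons and 27 higher in astrocytes, which is 33.7% and 26.7%, against 31.0% and 31.1% of all genes. Of 15 listed effectors of Rab3 and Rab27, 8 were tested, with 6 higher in neurons and 1 in astrocytes. Of the 8, 5 reached the array median only on neuron arrays, so they could pass the filter only by being high there. Of the 3 that reached it in both cultures, 1 was higher in neurons (Rims2) and 1 in astrocytes (Sytl2), with no share over all genes given beside them. Rims1, the active zone scaffold that binds Rab3, was at 671 and 637 in neurons and at 3 and 17 in astrocytes, 31.2-fold higher (adjusted p = 2.05e-06), and from 11.8-fold with the offset 4 times as large to 77.2-fold with an offset of 1. Its family member Rims4 was at least 9.52-fold higher and Myrip, which links Rab27a to myosin, at least 9.85-fold higher in neurons. The fitted log2 fold change of Rims4 was 1.83 when its probe sets were averaged, against 2.98. Sytl2, an effector of Rab27 that docks secretory vesicles, had the opposite direction: 59 and 75 in neurons and 1679 and 1669 in astrocytes, 21.3-fold higher in astrocytes (adjusted p = 1.85e-07). Rab27a was also higher in astrocytes, at low signal, as given above.

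Among exchange factors, 5 of 28 were called for neurons and 9 for astrocytes (17.9% and 32.1%, against 31.0% and 31.1% of all genes). Of the 28, 3 reached the array median only on astrocyte arrays. Of the 25 that reached it in both cultures, 5 were higher in neurons and 6 in astrocytes. No share over all genes is given beside that split, which describes these exchange factors only. Madd, an exchange factor for Rab3, was at 331 and 282 in neurons and at 109 and 81 in astrocytes, 2.98-fold higher (adjusted p = 0.000136). Dennd5b was 3.45-fold and Sbf1 2.65-fold higher in neurons. Rin1 and Rin2, exchange factors for Rab5, were higher in astrocytes, Rin1 at least 6.12-fold and Rin2 4.54-fold. Both reached the array median only on astrocyte arrays, so they could pass the filter only by being high there. Rin2 had signals of 31 and 35 in neurons and 200 and 188 in astrocytes, 2.94-fold with the offset 4 times as large. Dennd2a was 3.12-fold higher in astrocytes.

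Among GTPase-activating proteins, 12 of 30 were called for neurons and 7 for astrocytes (40.0% and 23.3%, against 31.0% and 31.1% of all genes), with 1 that reached the array median only on neuron arrays. Tbc1d16 was 6.04-fold and Tbc1d9 4.48-fold higher in neurons, and Tbc1d2b 3.94-fold, Tbc1d9b 3.02-fold and Evi5 2.40-fold higher in astrocytes. Rabgap1l was 5.56-fold higher in neurons by its brightest probe set (1109 and 1138 in neurons, 184 and 200 in astrocytes), but its probe sets averaged to a log2 fold change of 0.04 (adjusted p = 0.863). With probe sets averaged, the log2 fold change was 1.29 for Tbc1d9, against 2.16, and 1.89 for Tbc1d16, against 2.59.

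Of 18 endosomal effectors, 5 were higher in each culture (27.8%, against 31.0% and 31.1% of all genes), and 1 (Rilp) reached the array median only on astrocyte arrays. Of 5 tested effectors of Rab11, Rab11fip2, Rab11fip3 and Rab11fip4 were higher in neurons, while Rab11fip1 (log2 fold change -0.23, adjusted p = 0.453) and Rab11fip5 (-0.0027, adjusted p = 0.988) did not pass. Rab11fip2 was 2.66-fold higher (581 and 589 in neurons, 235 and 191 in astrocytes) and Rab11fip4 4.00-fold (230 and 241 in neurons, 76 and 31 in astrocytes). Rab11fip4 lost its call without neurons replicate 1 (adjusted p = 0.0663) or replicate 2 (adjusted p = 0.0703), and the average of the Rab11fip4 probe sets was 1.08 on the log2 scale. The Rab5 effectors Rabep1 and Rabep2 had opposite directions, Rabep1 2.14-fold higher in neurons (log2 fold change 1.10, and 0.67 with probe sets averaged) and Rabep2 2.24-fold higher in astrocytes. Rilpl1 was 2.28-fold higher in astrocytes. Rilp, an effector of Rab7, was at 7 and 17 in neurons, not above background, and at 39 and 44 in astrocytes, at least 1.88-fold higher in astrocytes. Rilp lost its call without neurons replicate 1 (adjusted p = 0.0553), astrocytes replicate 1 (0.0779) or astrocytes replicate 2 (0.0971).

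Of 10 Golgi and exocytic effectors, 4 were higher in each culture (40.0%, against 31.0% and 31.1% of all genes). Of the 10, 2 (Mical1 and Micall2) reached the array median only on astrocyte arrays. Bicdl1 (1.90-fold), Mical3 (1.83-fold) and Ehbp1 (1.82-fold) were higher in neurons. Mical1 (2.44-fold), Micall2 (at least 2.05-fold) and Golga5 (1.83-fold) were higher in astrocytes. Of these, Golga5 and Micall2 kept their call with any 1 array left out. Bicdl1 lost its call without neurons replicate 1 (adjusted p = 0.222), neurons replicate 2 (0.118) or astrocytes replicate 1 (0.168), and Mical3 without neurons replicate 1 (0.0571) or astrocytes replicate 1 (0.0618). Ehbp1 lost its call without astrocytes replicate 1 (0.0662) or replicate 2 (0.0589), as did Mical1 (0.0695 and 0.0756). Of 7 tested genes for escort, extraction and prenylation, 2 were higher in neurons and 1 in astrocytes (28.6% and 14.3%). Rabif, which binds Rabs free of nucleotide, was 2.51-fold and the escort gene Chml 2.03-fold higher in neurons, while its relative Chm was 1.47-fold higher in astrocytes. Chm lost its call without astrocytes replicate 2 (adjusted p = 0.0618), and Rabif had a log2 fold change of 0.63 without probe sets that may bind several transcripts, against 1.33. Gdi2, which extracts Rabs from membranes, was at 3835 and 3926 in neurons and at 4503 and 4428 in astrocytes (adjusted p = 0.104).

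**Figure D5:**
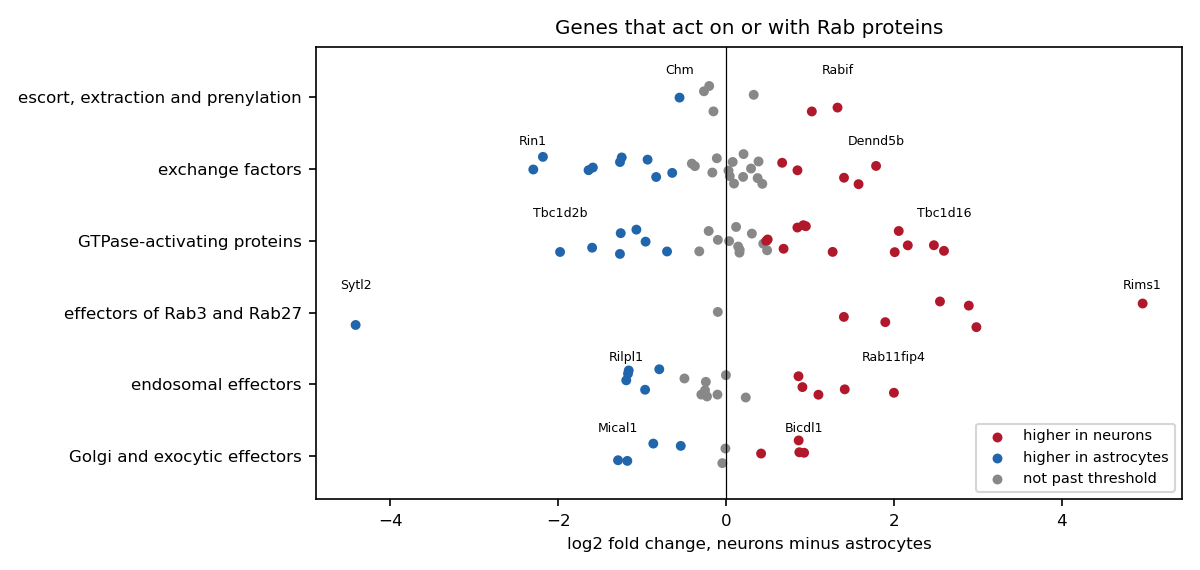
Log2 fold change (neurons minus astrocytes) of the 101 tested genes that act on or with Rab proteins, in 6 groups, coloured by call. The genes at the ends of each group are named; Rims1 (4.96) and Sytl2 (-4.41) lie farthest apart.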

How the data were processed

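RNA of 4 cultures (2 of neurons, 2 of astrocytes) was amplified in 2 cycles and hybridised to 1-colour arrays. The deposited values are MAS5 signals per the submitters' processing notes, a linear intensity in whole numbers; which MAS5 version was run is not stated there. Each array had a trimmed mean of about 150, so the authors' deposited values were already scaled and were not normalised again. Control probe sets (64) were left out. Probe sets were named through the platform annotation (34945 with 1 symbol, 932 with several, 9160 with none). Probe sets at or above the array median on at least 2 arrays were kept (25019), and log2(signal + 12.5) was fitted with limma 3.58.1 in R 4.3.3 (lmFit, eBayes with trend, two-sided), using 2 residual and 6.27 prior degrees of freedom. The median standard error was 0.197. A signal at or below the highest of 27 bacterial control probe sets, which was 21 and 23 on neuron arrays and 17 and 15 on astrocyte arrays, was taken as not above background; a fold against such a group is a lower bound. The number of arrays limits the precision. Per-array values are given for the 10 called genes of largest fold on either side, for Rabs of regulated secretion and for close relatives, and named regulators are the 3 with the largest change in each direction of a list; Gdi2, Itgam, Rims2, Rab11fip1, Rab11fip3 and Rab11fip5, and other values outside this rule, were chosen after they were seen. The Rab members, their grouping into roles and all gene lists were chosen with earlier results of these data known. The fit was also run on simulated data drawn from its own variance model, so that run does not test whether the model holds for these arrays. Alternatives changed the offset, filter, normalisation, variance trend, probe set choice and replicates. The main fit did not pair arrays by replicate number. Deviations of same-numbered arrays correlated at -0.0901, but with 2 arrays a group this cannot show whether they were paired.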

Additional observations from a re-analysis of the deposited data

How the results depend on the processing

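Across 13 alternatives, 15 to 20 Rab genes were higher in neurons and 14 to 21 higher in astrocytes, against 19 each. Of the 38 called Rab genes, 24 were called, and 37 kept their direction, in every alternative in which they were tested. Among the 24, Rab15, Rab26 and Rab42 were tested in 12 of the 13. Rab13 and Rab4b, among the 37, were also tested in 12. With 1 array left out, 15 to 16 Rab genes were higher in neurons and 14 to 15 in astrocytes, and 24 to 25 regulators and effectors were higher in neurons and 20 to 24 in astrocytes. Rab27a reversed without the filter (log2 fold change 0.21), where another of its probe sets is read, and Rab11b reversed with probe sets averaged (-0.52). A stricter filter, at the 75th percentile, left 22 regulators and effectors higher in neurons, against 34, with 67 of them tested. Without a variance trend, Rab2a, Rab8a, Rab10, Rab14 and Rab24 missed the threshold, and without the filter Rab8a and Rab10 did. Rab27a had a log2 fold change of -0.64 with the offset 4 times as large and -2.98 with an offset of 1. With the replicate number as a replicate block, 20 Rab genes were higher in neurons and 19 in astrocytes (Rab11b was gained, adjusted p = 0.0266), and 33 and 27 regulators and effectors. No other Rab call changed with the block. With 2 arrays a group, small differences rest on spread borrowed across probe sets. Where 1 culture lay near background, as for Rab3b, Rab3c, Rab7b, Rab9b, Rab15, Rab26, Rab27a, Rab32, Rab33a and Rab42, the fold depended on the offset.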
